A study of Mus musculus with 5 samples.

Results

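Pericentral hepatocytes, the liver cells nearest the central vein, were followed from the fed state to 24 h without food in 5 droplet-based single-cell RNA libraries of mouse liver. They were chosen by measured values. A cell barcode was taken as a member where it held 1000 or more UMIs (unique molecular identifiers, each standing for a captured transcript) and 500 or more genes, with 2 to 30% of UMIs from genes of the mitochondrial genome (mt) and under 2% from the globin genes Hba and Hbb, and where it held 20 or more UMIs of Cyp2e1 and under 10 of Glul per 10000 UMIs. The rule found 6069 members. They were part of 28810 barcodes past the limits on UMIs, genes, mt and globin, out of 50000 deposited barcodes.

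All libraries came from isolated liver cells of male wild-type (WT) C57BL/6J mice on normal chow, whose food had been given for 8 h and withheld for 16 h of each day over 3 days of training. On the day of sampling the mice ate chow and drank water with 20% sucrose for 4 h, when the fed group (0 h) was taken at 13:00. Food and sucrose were then removed, and the fasted groups followed after 4, 8, 16 and 24 h, at the clock hours 17, 21, 5 and 13. Fasting time and clock hour cannot be told apart, except that 24 h and 0 h share their hour. Each time had 1 library, so no difference between times has a replicate check, and none was tested. How many animals went into a library is not stated in the labels.

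Blood runs through the liver lobule from the portal vein to the central vein, and hepatocytes along that path divide the work between them. Pericentral hepatocytes see blood that is already poor in oxygen, lie close to the Wnt ligands made by central vein endothelium, and are known for the cytochrome P450 enzymes that oxidise drugs and steroids, for bile acid synthesis and for much of the liver's glycolysis and lipogenesis. Periportal hepatocytes are known for gluconeogenesis, urea synthesis and amino acid breakdown. Cyp2e1, the marker behind the rule, oxidises ethanol, acetone and paracetamol. Glul, the glutamine synthetase of the cell layers that touch the central vein, was used to leave those layers out.

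Members numbered 1369 in the fed library, then 1540, 504, 2375 and 281 at 4, 8, 16 and 24 h. As a share of barcodes past the filters they made up 17.5% (exact binomial 95% interval 16.7 to 18.4), 33.7% (32.3 to 35.1), 18.6% (17.1 to 20.1), 26.0% (25.1 to 26.9) and 6.14% (5.46 to 6.88). By this share the 4 h library was the highest and the 24 h library the lowest. The barcodes past the filters numbered 7826, 4567, 2716, 9125 and 4576. Over all deposited barcodes, 10000 in each library, members made up 13.7, 15.4, 5.04, 23.8 and 2.81%, with the 16 h library highest. Here and below, an interval covers counting error within a library and nothing else. The share rests on the Cyp2e1 level that defines the class, so it is a description. Just inside the threshold, at 20 to 25 Cyp2e1 UMIs per 10000, lay 129, 184, 35, 170 and 37 members, and just outside it, at 15 to 20, lay 177, 163, 62, 183 and 44 other barcodes. The members' median Cyp2e1 level, bounded below by the rule, was 57.4, 48.4, 55.1, 62.8 and 48.8 per 10000 UMIs, and the upper quartile over all filtered barcodes was 9.84, 32.9, 6.24, 24.6 and 1.88. At 24 h, 86.9% of filtered barcodes held under 5 Cyp2e1 and under 10 Glul UMIs per 10000, against 67.6% in the fed library.

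**Figure D1:**
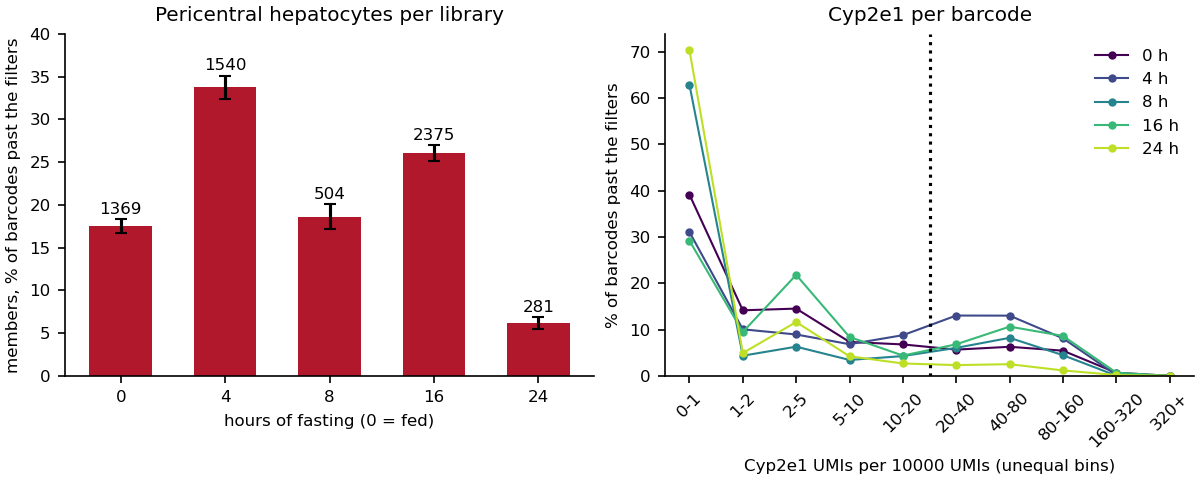
Share of filtered barcodes that were members in each library (bars, percent, with exact binomial 95% intervals and member numbers above), and the distribution of Cyp2e1 UMIs per 10000 over filtered barcodes in unequal bins (lines, 1 per library), with a dotted line at the threshold of 20. The bar at 24 h, 6.14%, is the lowest of the 5, and that at 4 h, 33.7%, the highest.

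Depth was uneven. The members' median UMI count was 3748, 4422, 11868, 3915 and 7939 and their median mt share 11.5, 18.2, 9.82, 13.5 and 18.6%. Their UMIs outside the mt genes, over which all levels below were summed, came to 5390742, 10602803, 5200812, 8215870 and 1903943. Levels are given as CPM, their counts scaled to 1000000 of those summed UMIs, always in the order 0, 4, 8, 16 and 24 h, and ratios to the fed library as log2 values in the order 4, 8, 16 and 24 h, where 1 is a doubling. Of 50000 barcodes, 259 barcode sequences occurred in more than 1 library, 5 of them among members. As a measure of background, in 299, 10, 20, 67 and 45 barcodes with endothelial markers, a cell type without Cyp2e1, summed Cyp2e1 was 5.08, 3.39, 0.843, 5.29 and 1.85 UMIs per 10000, against 71.5, 66.9, 59.2, 69.2 and 60.8 in members. Free RNA and doublets cannot be told apart in these barcodes, of which 2.34, 0, 0, 4.48 and 0% held 20 or more. Members were left out of them, although 8, 0, 0, 8 and 0 members also held 4 or more endothelial markers. Cyp2e1 in these barcodes was thus held down by the rule, and the background may be higher than these values.

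The label was checked against genes that the rule had not used. Cyp1a2 (chr9:57676937-57683703), which hydroxylates caffeine and oestrogens, stood at 582, 623, 601, 508 and 158 CPM in members. In barcodes past the filters with under 5 Cyp2e1 and under 10 Glul UMIs per 10000, called low-Cyp2e1 cells from here on, it stood at 26.4, 39.2, 47.6, 26.1 and 11.3 CPM. No other cell type was removed from these, and their 12 endothelial markers summed to 5.48 to 74.7 CPM and their 12 macrophage markers to 0.411 to 37.4. Members were far above low-Cyp2e1 cells in all 5 libraries. The same held for Cyp2c29 (chr19:39269405-39330713), a steroid and fatty acid hydroxylase, at 4608, 3233, 2568, 3855 and 1167 CPM in members and 89.3, 47.6, 11.3, 114 and 43.5 in low-Cyp2e1 cells. Gulo (chr14:65986786-66009207), the last enzyme of vitamin C synthesis, stood at 458, 295, 380.3, 448 and 85.1 against 16.2, 12.9, 21.6, 24.7 and 5.25 CPM. These genes are from cells grouped by a linked marker, so the gap is a check of the name and no independent finding. The markers of other cell types were low: the summed level of 12 endothelial markers in members was 4.06 to 46.7 CPM over the libraries, of 12 macrophage markers 0.385 to 8.53, of 10 lymphocyte markers 0 to 2.12, and of 8 neutrophil markers 0 to 0.365. Among 9 cholangiocyte markers 6 were at 0 in every library, and most of their 110 to 196 CPM was Tm4sf4. Of 8 erythroid markers, at 27.0 to 68.5 CPM in sum, Alas2 was the highest in every library and 6 or 7 were at 0 up to 16 h. At 24 h Alas2 was 19.4 of 53.6 CPM, and 3 markers were at 0. The 10 stellate cell markers summed to 1.32 to 20.6 CPM up to 16 h and to 72.5 CPM at 24 h, of which Dcn made up 32.6 CPM.

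Several central genes were lower in the 24 h members than in the fed ones. Cyp1a2 had a log2 ratio of −1.88 to fed at 24 h (95% interval −2.06 to −1.71) after 0.10, 0.05 and −0.20. The log2 ratios of Gulo were −0.64, −0.27, −0.03 and −2.43, with an interval of −2.67 to −2.20 at 24 h, and those of Cyp2c29 were −0.51, −0.84, −0.26 and −1.98. Oat (chr7:132557478-132576398), the ornithine aminotransferase that feeds glutamine synthesis, stood at 609.7, 908, 566, 729 and 169 CPM, with log2 ratios of 0.57, −0.11, 0.26 and −1.85. For all 4 genes the 24 h library was the lowest of the 5. In members with up to 15% mt UMIs, Oat had a log2 ratio of −0.78 at 24 h, short of 2-fold. Cyp2e1 itself, at 8111, 8300.4, 6591, 8035 and 7529 CPM (chr7:140763739-140774987), was held up by the rule, and Glul, at 214, 97.5, 95.2, 73.3 and 55.7 CPM, was held down by it.

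Over 14 central landmark genes with a mean of 50 CPM or more (of 26 listed, Cyp2e1 and Glul left out), 0, 1, 2 and 6 were 2-fold or more lower than fed at 4, 8, 16 and 24 h and 0, 1, 0 and 0 higher. Their median log2 ratios were 0.15, −0.13, −0.07 and −0.61. Over all 2739 genes with that mean level the medians were −0.02, −0.02, 0.00 and −0.04, and 4.16, 10.0, 3.21 and 8.76% were 2-fold or more lower, against 5.62, 8.21, 3.29 and 4.97% higher. Not every landmark was low at 24 h. Nr1i3, the constitutive androstane receptor that controls drug metabolism, stood at 204, 169, 172, 234 and 335 CPM, highest at 24 h. Aldh1a1, a retinaldehyde dehydrogenase, stood at 1581, 2615, 2016, 1531 and 1585 CPM and at 24 h was close to the fed level. In low-Cyp2e1 cells the same list had medians of 0.36, −0.18, −0.06 and −0.38. With the barcodes above each library's upper quartile of Cyp2e1 taken in place of members, the list median at 24 h was −1.50. Of those barcodes, 281 of 1143 were members at 24 h and 1369 of 1936 in the fed library, so the sets compared are unlike. In members with up to 15% mt UMIs the list median was −0.42 at 4 h, where the median of all genes was itself shifted by −0.32.

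**Figure D2:**
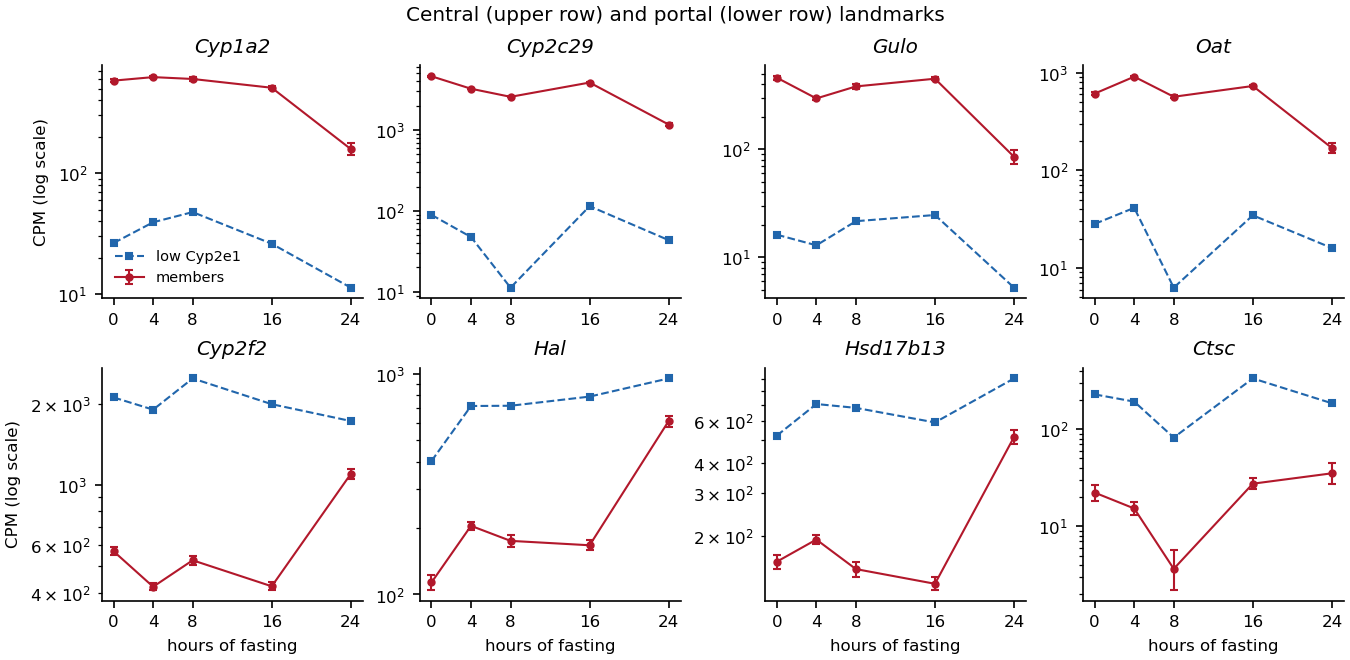
CPM on a log axis over fasting time (h) for the central genes Cyp1a2, Cyp2c29, Gulo and Oat (upper) and the portal genes Cyp2f2, Hal, Hsd17b13 and Ctsc (lower), in members (solid, with exact Poisson 95% intervals) and in low-Cyp2e1 cells (dashed, without). The central genes of members are lowest at 24 h (Cyp1a2 158 CPM), while Cyp2f2, Hal and Hsd17b13 come closer to the low-Cyp2e1 cells there.

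Of 21 portal landmarks past the minimum, 9 were 2-fold or more higher in members at 24 h than in the fed state. Cyp2f2 (chr7:27119909-27133660), the most used portal P450 marker, stood at 569, 421, 527, 422 and 1099 CPM in members and at 2107, 1899, 2477, 1989.6 and 1724 in low-Cyp2e1 cells. Members were highest at 24 h, with a log2 ratio of 0.95 to fed (95% interval 0.87 to 1.03). Hal, the histidine ammonia-lyase, stood at 113, 205, 175, 167 and 611 CPM in members against 402, 714, 716, 788 and 952, and Hsd17b13, a lipid droplet retinol dehydrogenase, at 156, 193, 145, 126 and 514 against 521, 705, 679.7, 591 and 901. In members all 3 genes were highest at 24 h. The log2 ratio of members over low-Cyp2e1 cells moved nearest to 0 there: for Cyp2f2 it was −1.89, −2.17, −2.23, −2.24 and −0.65 in time order, and for Hal −1.83, −1.80, −2.03, −2.24 and −0.64. Split at 15% mt UMIs, with the lower side first, Cyp2f2 stood at 585 and 480 CPM in the fed members. The split gave 389 and 425 CPM at 4 h, 534 and 218 at 8 h and 400 and 480 at 16 h. At 24 h Cyp2f2 differed most: in the 60 members with up to 15% it stood at 612 CPM, a log2 ratio of 0.066 to fed. In the 221 above 15% at 24 h it stood at 1167 CPM. For Hal and Hsd17b13 the log2 ratio at 24 h in members with up to 15% was 2.47 and 1.37. The share of members with 20 or more Cyp2f2 UMIs per 10000 was 4.09, 2.60, 6.35, 3.45 and 9.96%, which is 56, 40, 32, 82 and 28 cells. Doublets of a central and a portal cell were not removed, and their part in this was not tested. Ctsc, the lysosomal cathepsin C, was also highest in members at 24 h, at 22.3, 15.3, 3.65, 27.5 and 35.2 CPM against 228, 193, 82.1, 334 and 185, though it stayed further below low-Cyp2e1 cells, with log2 ratios of −3.36, −3.66, −4.49, −3.60 and −2.40.

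Over the 4 fasted times, 3, 5, 1 and 9 portal landmarks were 2-fold or more higher than fed and 0, 0, 0 and 1 lower, with medians of 0.31, 0.43, −0.04 and 0.75. In low-Cyp2e1 cells the medians were 0.20, 0.43, 0.13 and 0.27. In the 60 members with up to 15% mt UMIs at 24 h, the median was 0.44. Sds, a serine dehydratase that feeds gluconeogenesis, was at 37.1, 94.9, 69.8, 25.3 and 224 CPM in members, again highest at 24 h, and Apoa4, an apolipoprotein, at 70.1, 45.6, 54.99, 52.5 and 154. The 1 portal landmark 2-fold or more lower at 24 h was Serpina1e, of the α1-antitrypsin family whose near-identical copies make its counts uncertain, at 2293, 3161, 7608, 3903 and 545 CPM: highest at 8 h and lowest at 24 h.

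Across all genes, the 8 h library had the most genes past 2-fold with the members as chosen. With 50 CPM or more in either library, 162 of 3017 genes at 4 h were 2-fold or more higher (5.37%) and 171 lower (5.67%). At 8 h the counts were 271 of 3125 higher (8.67%) and 366 lower (11.7%), at 16 h 127 of 3107 higher (4.09%) and 129 lower (4.15%), and at 24 h 155 of 3040 higher (5.10%) and 320 lower (10.5%). The order of the libraries depends on which cells are taken: up to 15% mt UMIs, 382 genes were higher and 773 lower at 4 h, 316 and 623 at 24 h, and 256 and 382 at 8 h. The next sets come from another base, the 2739 genes that averaged at least 50 CPM across the libraries. Among them, 22 were 2-fold or more higher at all 4 fasted times and 35 lower, in 4 comparisons that share the fed library. The first set holds Pck1, Igfbp1, Angptl4, Lpin2, Acot1, Mt1 and Mt2, and the second Fasn, Acly, Thrsp, Pklr, Insig1, Hspa5, Hsp90b1 and Pdia4. Each of these genes is described with its group below. The counts given for gene lists below are to be set beside the shares over all 2739 genes. Of these, 5.62, 8.21, 3.29 and 4.97% were 2-fold or more higher at 4, 8, 16 and 24 h, and 4.16, 10.0, 3.21 and 8.76% lower.

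**Figure D3:**
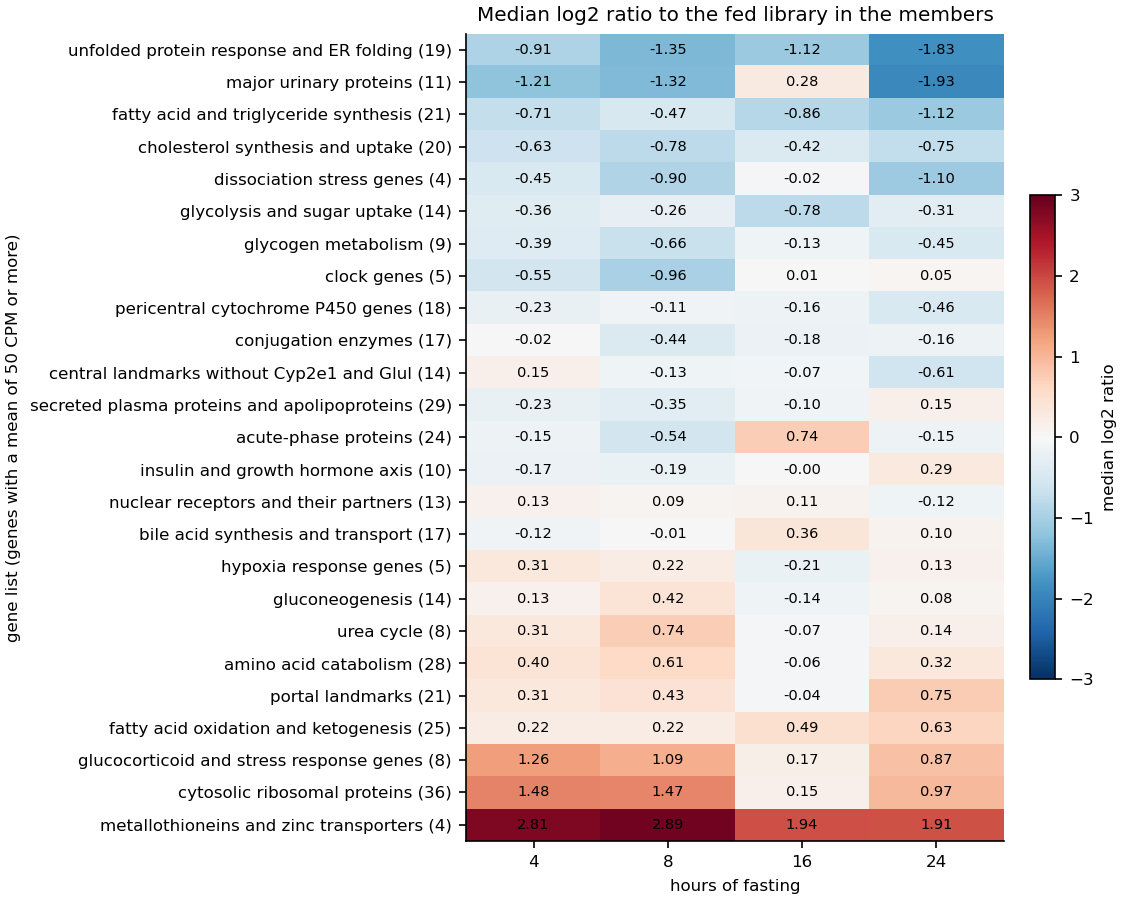
Median log2 ratio to the fed library at 4, 8, 16 and 24 h (columns) in members, for 25 gene lists (each taken over its genes with a mean of 50 CPM or more, as colour and number). Synthesis of fatty acids and the ER folding list are below 0 at every time, the latter at −0.91, −1.35, −1.12 and −1.83. Ribosomal proteins stand at 1.48, 1.47, 0.15 and 0.97.

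Some gluconeogenic genes were already high in these central cells at 4 h. Pck1 (chr2:173153048-173159273), the cytosolic PEPCK that commits oxaloacetate to glucose, stood at 492, 3014, 3375, 2359 and 3943 CPM in members and at 1019.8, 4385, 3725, 4302 and 4812 in low-Cyp2e1 cells. The fed members were lowest and the 24 h members highest, with log2 ratios of 2.62 (95% interval 2.56 to 2.67), 2.78, 2.26 and 3.00 (95% interval 2.94 to 3.07) against fed. Fed members held less Pck1 than low-Cyp2e1 cells, and the log2 ratio of the classes was −1.05, −0.54, −0.14, −0.87 and −0.29 in time order. After each cell was thinned to 1000 UMIs outside the mt genes, 34.8, 86.4, 95.4, 87.6 and 90.04% of members held a Pck1 UMI, against 26.8, 70, 15, 75.8 and 91.1% of the endothelial barcodes, so Pck1 RNA was also in most endothelial barcodes at 4, 16 and 24 h, and the shares there are not read as shares of expressing cells. Thinning left out 0, 1, 5, 52 and 0 members and 0, 0, 0, 5 and 0 endothelial barcodes as shallower. Without thinning the members' shares were 65.3, 95.8, 99.8, 97.9 and 99.6%. The median endothelial UMI count was 1788, 4116, 1810.5, 1312 and 3823.

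Got1, the cytosolic aspartate aminotransferase, stood at 92.8, 563, 1492, 171 and 369.8 CPM, with its peak at 8 h (log2 4.01, 95% interval 3.88 to 4.14). Slc37a4, the glucose-6-phosphate transporter, stood at 219, 189, 228, 84.6 and 201 CPM and was low at 16 h alone. Of 14 gluconeogenic genes past the minimum, 3, 4, 2 and 3 were 2-fold or more higher and 0, 0, 1 and 0 lower, with list medians of 0.13, 0.42, −0.14 and 0.08. Of 28 amino acid catabolism genes, 2, 4, 1 and 3 were higher and 0, 0, 0 and 1 lower. The lower member at 24 h was Oat. Over all 2739 genes, 5.62, 8.21, 3.29 and 4.97% were higher and 4.16, 10.0, 3.21 and 8.76% lower. Csad, which makes hypotaurine from cysteine sulfinate, was a central gene in all libraries (357, 518, 745, 983 and 209 CPM in members, 51.3, 66.4, 80.4, 183 and 37.6 in low-Cyp2e1 cells) and peaked at 16 h. Among 8 urea cycle genes, 0, 2, 0 and 1 were higher and 0, 0, 1 and 0 lower. Asl, the argininosuccinate lyase, at 321, 343, 489, 126 and 525 CPM was lowest at 16 h.

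Many lipogenic genes were low from the first fasted time on. Fasn (chr11:120805846-120824547), the fatty acid synthase, stood at 1764, 89.4, 85.4, 105 and 81.9 CPM, with log2 ratios of −4.30 (95% interval −4.40 to −4.21) at 4 h and −4.43 at 24 h. The fed members were high and the 4 fasted groups alike and low. Acly, which cuts citrate to acetyl-CoA, was lower at each later time, at 1502, 439, 179, 132 and 111 CPM. Thrsp, a carbohydrate-responsive regulator of lipogenesis, stood at 3069.7, 1358, 469, 76.1 and 295 CPM, lowest at 16 h (log2 −5.33, 95% interval −5.45 to −5.22). Elovl6, the elongase of palmitate, stood at 968, 75.1, 24.6, 64.4 and 43.1 CPM. All 4 were highest in the fed library.

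Not all lipid synthesis genes followed. Elovl3 (chr19:46131897-46135694), which elongates saturated fatty acids to very long chains, stood at 20.6, 374, 1142, 151 and 32.6 CPM: low when fed, highest at 8 h (log2 5.79, 95% interval 5.52 to 6.08) and 32.6 at 24 h. Lpin2, a phosphatidate phosphatase, was at 98.5, 446, 446, 233 and 369 CPM and higher at every fasted time. Scd1, the stearoyl-CoA desaturase and the most abundant gene of the list, stood at 8660.4, 7644, 6842, 9891 and 3987 CPM and was past 2-fold lower at 24 h only. Of 21 fatty acid and triglyceride synthesis genes past the minimum, 8, 9, 10 and 11 were 2-fold or more lower and 3, 3, 2 and 1 higher, with medians of −0.71, −0.47, −0.86 and −1.12. In low-Cyp2e1 cells the medians were −0.62, −0.62, −1.13 and −1.43. In members with up to 15% mt UMIs they were −1.20 at 4 h and −1.97 at 24 h.

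Of 14 glycolysis and sugar uptake genes, 3, 5, 6 and 4 were 2-fold or more lower than fed and 0 higher at any time. Pklr, the liver pyruvate kinase, stood at 196, 85.5, 94.02, 43.2 and 28.4 CPM, with log2 ratios of −1.20, −1.06, −2.18 and −2.79. Tkfc, which phosphorylates glyceraldehyde from fructose, stood at 883, 304, 313, 181 and 170.2 CPM. Every fasted library was below the fed one for both genes. Ldha, the lactate dehydrogenase subunit, was the highest of the list at each time, at log2 ratios of 0.60, 0.79, 0.93 and 0.94, without reaching 2-fold. In the glycogen list (9 genes, with 0, 4, 1 and 3 lower and 1, 1, 1 and 0 higher), the protein phosphatase targeting subunits parted: Ppp1r3b was at 747, 404, 314, 121 and 227 CPM, highest when fed, and Ppp1r3c at 31.2, 65.5, 255, 79.7 and 23.1, highest at 8 h. In cells with up to 15% mt UMIs, Ppp1r3c had a log2 ratio of −0.019 at 4 h, against 1.07 over all members.

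Among 20 cholesterol synthesis and uptake genes, 4, 8, 4 and 6 were 2-fold or more lower than fed and 1, 1, 1 and 0 higher, with medians of −0.63, −0.78, −0.42 and −0.75. The pair of INSIG proteins that hold the sterol sensor in the ER had opposite patterns: Insig1 was at 1259, 490.4, 207, 564 and 358 CPM and Insig2 at 192, 499.6, 655, 551 and 246. Insig1 was highest when fed and lowest at 8 h, Insig2 the reverse. Insig2 was the higher member of the list. In members with up to 15% mt UMIs the list median was −1.39 at 4 h and −1.41 at 24 h.

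Fatty acid oxidation genes past 2-fold became more numerous with time. Of 25 genes of oxidation and ketogenesis, 2, 3, 6 and 8 were 2-fold or more higher at 4, 8, 16 and 24 h and 0, 1, 0 and 0 lower, with medians of 0.22, 0.22, 0.49 and 0.63. In the members with up to 15% mt UMIs the median was −0.27 at 4 h and 0.36 at 24 h. Acot1, a cytosolic acyl-CoA thioesterase, stood at 6.12, 98.4, 99.98, 83.3 and 82.5 CPM in members and 1.97, 23.1, 39.4, 12.4 and 27.3 in low-Cyp2e1 cells. It was high in all fasted libraries (log2 4.01, 95% interval 3.51 to 4.55 at 4 h), on 33 UMIs in the fed members. Acot3, a peroxisomal thioesterase, stood at 15.4, 18.8, 4.81, 36.5 and 201 CPM and was high at 24 h (log2 3.71, 95% interval 3.36 to 4.07). Cyp4a14 (chr4:115486200-115496142), an ω-hydroxylase of fatty acids, stood at 1054, 711, 1227, 1795 and 4522 CPM, and the related Cyp4a10 at 627, 465, 636, 646 and 2666. Both were highest at 24 h. Their close similarity makes the split of counts between them uncertain. Angptl4, an inhibitor of lipoprotein lipase, peaked at 8 h, at 12.6, 127, 315, 78.02 and 142 CPM. Ppara, the receptor that controls these genes, was at 70.1, 104, 74.8, 99.1 and 153 CPM, a log2 ratio of 1.12 at 24 h, and 0.52 in members with up to 15% mt UMIs.

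**Figure D4:**
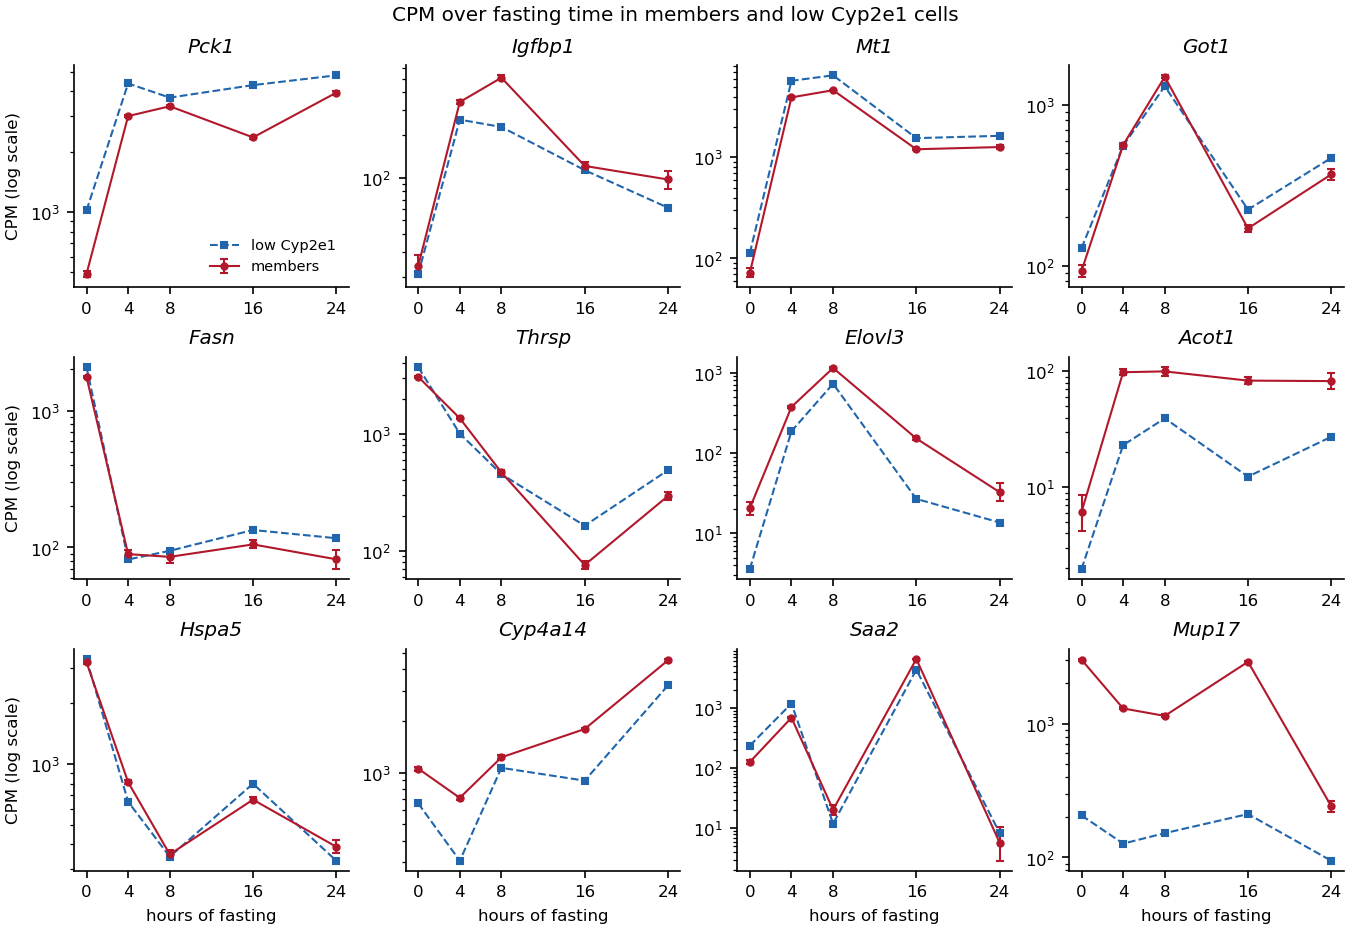
CPM of 12 genes over fasting time (h) in members (solid, with exact Poisson 95% intervals) and in low-Cyp2e1 cells (dashed), each panel with its own log axis. In members Fasn and Thrsp are highest when fed, Mt1, Got1 and Elovl3 peak at 8 h, Saa2 at 16 h, and Pck1 and Cyp4a14 at 24 h (Pck1 3943 CPM).

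Most ER folding genes were 2-fold or more lower than fed from 8 h on, and 9 of 19 at 4 h. Hspa5 (chr2:34771970-34777547), the BiP chaperone of the ER lumen, stood at 3199.6, 813, 356, 666 and 389 CPM and Hsp90b1 (chr10:86690209-86705509), the GRP94 chaperone, at 1899, 703, 423, 664 and 524. The fed members were highest and those at 8 h and 24 h lowest, with log2 ratios of −3.17 (95% interval −3.24 to −3.10) and −3.04 (95% interval −3.15 to −2.94) for Hspa5. Pdia4, a disulfide isomerase, stood at 1098, 143, 72.5, 356 and 84.04 CPM, Manf, a secreted ER stress protein, at 693, 169, 56.5, 118 and 53.05, and Hyou1, a large ER chaperone, at 426, 67.9, 44.8, 99.7 and 21.01. For these 3 genes too no fasted library reached the fed level. Of 19 genes of the unfolded protein response and ER folding (of 27 listed, 26 of them in the files), 9, 12, 11 and 14 were 2-fold or more lower and 0 higher. The medians were −0.91, −1.35, −1.12 and −1.83 in members and −1.07, −1.58, −1.06 and −1.75 in low-Cyp2e1 cells. In members with up to 15% mt UMIs the median at 4 h was −1.94. Herpud1, which helps degrade ER proteins, did not pass 2-fold at any time, at 693, 901, 759, 568 and 764 CPM.

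The promoters of these genes are shown because the unfolded protein response is known to act through the ER stress element, which binds ATF6 with NF-Y. The 250 bases before the start site, from RefSeq (GRCm38.p6), read 5′ to 3′ on the gene's strand, with the bases that match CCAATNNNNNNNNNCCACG on either strand in capitals, N bases left small. Pdia6, a disulfide isomerase, was added after its values and motif were seen, at 441, 234, 226, 220.2 and 121 CPM.
Hspa5, chr2:34771840-34772089, + strand: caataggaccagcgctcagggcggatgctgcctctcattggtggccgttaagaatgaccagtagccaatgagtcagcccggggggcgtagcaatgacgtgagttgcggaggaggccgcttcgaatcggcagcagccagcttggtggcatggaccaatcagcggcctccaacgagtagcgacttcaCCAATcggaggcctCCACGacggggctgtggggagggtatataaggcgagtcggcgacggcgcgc
Hsp90b1, chr10:86705445-86705694, − strand: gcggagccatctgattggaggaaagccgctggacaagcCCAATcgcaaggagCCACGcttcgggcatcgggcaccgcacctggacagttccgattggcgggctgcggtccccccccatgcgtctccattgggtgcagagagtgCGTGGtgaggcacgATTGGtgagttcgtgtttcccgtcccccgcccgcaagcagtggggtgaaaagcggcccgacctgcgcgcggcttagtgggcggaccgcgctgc
Pdia6, chr12:17266339-17266588, + strand: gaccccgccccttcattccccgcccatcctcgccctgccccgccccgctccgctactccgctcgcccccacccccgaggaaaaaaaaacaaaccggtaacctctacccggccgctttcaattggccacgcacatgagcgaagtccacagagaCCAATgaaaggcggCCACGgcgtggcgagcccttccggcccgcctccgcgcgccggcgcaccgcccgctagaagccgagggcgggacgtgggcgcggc
The match lay 65 to 47 bases before the RefSeq start of Hspa5, which is inside the GENCODE span given above, so the match is inside that span too, and 98 to 80 before that of Pdia6. Hsp90b1 held it 212 to 194 bases before its start and, on the other strand, 107 to 89 before it. Among the 19 genes, 17 had a promoter in the table and 6 of these held the motif (Calr, Dnajc3, Hsp90b1, Hspa5, Pdia6 and Syvn1, named for the match), against 37 of all 32851 promoters, or 0.113%. The motif was defined on such genes, so its presence among them is no independent finding. A match is a description of the letters and not of binding.

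Metallothioneins, small cysteine-rich proteins that bind zinc and copper, were far above the fed level at every fasted time. Mt1 (chr8:94179082-94180327) stood at 72.2, 3920.2, 4617, 1203 and 1265 CPM and Mt2 (chr8:94172664-94173568) at 12.2, 1420.4, 1444, 518 and 315. Both were lowest when fed, highest at 4 and 8 h, and in between at 16 and 24 h. Mt1 had log2 ratios of 5.76 (95% interval 5.62 to 5.91) at 4 h and 6.00 (95% interval 5.85 to 6.15) at 8 h, and Mt2 6.86 (95% interval 6.51 to 7.23) at 4 h. Low-Cyp2e1 cells had the same order, with Mt1 at 113, 5723, 6476, 1549.8 and 1634 CPM. The 2 zinc transporters past the minimum, Slc30a1 and Slc39a14, had log2 ratios of −0.34, −0.22, −0.19 and −0.44 and of −0.14, −0.22, −0.21 and −0.30, short of 2-fold throughout. After thinning, 8.18, 93.8, 90.8, 57.3 and 66.9% of members held an Mt1 UMI and 25.8, 100, 75, 79.03 and 73.3% of endothelial barcodes. The members' share was above the endothelial one at 8 h and not at the other times, so these shares are not read as shares of expressing cells. Without thinning the members' shares were 21.5, 99.7, 99.2, 81.3 and 96.1%.

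The promoters of this neighbouring pair carry the core of the metal response element, bound by the zinc sensor MTF1. The forms TGCACNC and TGCGCNC were searched on both strands, and matching bases are in capitals, with the N base small.
Mt1, chr8:94178839-94179088, + strand: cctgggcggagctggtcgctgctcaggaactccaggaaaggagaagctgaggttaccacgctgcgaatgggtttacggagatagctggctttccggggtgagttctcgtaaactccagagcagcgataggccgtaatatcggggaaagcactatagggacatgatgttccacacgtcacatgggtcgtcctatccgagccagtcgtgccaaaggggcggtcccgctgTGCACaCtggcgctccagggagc
Mt2, chr8:94172368-94172617, + strand: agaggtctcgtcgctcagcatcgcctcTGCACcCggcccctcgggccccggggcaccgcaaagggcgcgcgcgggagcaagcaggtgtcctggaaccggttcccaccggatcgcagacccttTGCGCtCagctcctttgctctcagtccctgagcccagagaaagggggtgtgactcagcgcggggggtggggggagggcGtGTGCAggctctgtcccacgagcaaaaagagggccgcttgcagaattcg
Mt1 held 1 match, 23 to 17 bases before its start. Mt2 held 3, at 223 to 217, 128 to 122 and, on the other strand, 50 to 44 bases before its start. Of all 32851 promoters, 21.4% held at least 1 match and 1.26% held 3 or more. Of the 22 genes higher at all 4 times, 14 had a promoter in the table and 4 of them a match (Lpin2, Mt1, Mt2 and Retreg1). With a core this short, a match is common in any promoter.

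Single endocrine and stress genes had high ratios to fed. Igfbp1, a secreted IGF-binding protein held down by insulin, stood at 23.7, 342, 508, 121 and 97.2 CPM, highest at 8 h (log2 4.42, 95% interval 4.16 to 4.69). Low-Cyp2e1 cells stood at 20.8, 257, 228, 113 and 61.4 CPM, below members in all 5 libraries. Cdkn1a, the p21 cell cycle inhibitor, was at 0.928, 52.6, 238, 0.974 and 5.78 CPM, on 5 UMIs in the fed members, 8 at 16 h and 11 at 24 h. It was highest at 8 h, then at 4 h, with log2 8.00 (95% interval 6.78 to 9.63) at 8 h. Ddit4, a stress-induced mTORC1 inhibitor, also peaked at 8 h, at 5.38, 11.5, 60.6, 2.68 and 3.68 CPM. Dusp1, a MAP kinase phosphatase, went the other way, at 149.7, 84.2, 56.1, 136 and 55.1 CPM. Of 8 glucocorticoid and stress genes, 4, 4, 2 and 4 were 2-fold or more higher and 0, 1, 0 and 1 lower. Of 10 genes of the insulin and growth hormone axis, 2, 3, 1 and 2 were higher and 0, 1, 0 and 1 lower. Inhbc, an inhibin subunit, was the lower one at 8 and 24 h (132, 66.2, 47.3, 81.8 and 48.3 CPM).

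Of 24 acute-phase genes, 9 were 2-fold or more higher in the 16 h library. Saa1 and Saa2, serum amyloid A proteins, stood at 245, 702, 36.9, 6447 and 15.8 and 127, 691, 20.4, 6546 and 5.78 CPM, with the 16 h members far above all others and the 8 h and 24 h members lowest. Saa2 had log2 ratios of 5.69 (95% interval 5.58 to 5.80) at 16 h and −4.45 (95% interval −5.46 to −3.61) at 24 h, on 11 UMIs. Saa3 was at 2.04, 2.17, 2.5, 251 and 2.63 CPM and Lcn2, an iron-scavenging lipocalin, at 6.68, 23.1, 4.999, 288 and 11.03, both highest at 16 h by a wide margin. The near-identical Saa1 and Saa2 can share UMIs, so each level is uncertain. Over the 4 fasted times, 3, 0, 9 and 1 of the list were 2-fold or more higher and 0, 6, 3 and 4 lower. Hamp, the iron hormone hepcidin, did not follow, at 1484, 751, 1031, 668 and 1538 CPM in members, lowest at 16 h, and was higher in members than in low-Cyp2e1 cells (590.4, 386, 512, 413 and 550.2 CPM). Cxcl1, a neutrophil chemokine, was at 93.9, 5.28, 1.54, 7.303 and 8.404 CPM, high in the fed library alone. With 1 library for each time, a difference of the 16 h animals other than fasting time cannot be told apart from it.

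Transcripts for secreted proteins differed by family. Alb, the serum albumin, stood at 43185, 39218, 31566, 45476 and 64355 CPM in members, highest at 24 h, against 84699, 64882, 54564, 97532 and 80343 in low-Cyp2e1 cells. The mt share moved with it: members with up to 15% mt UMIs stood at 41517 CPM at 24 h against 40410 when fed, and those above 15% at 67526 against 58959. Of 29 plasma proteins and apolipoproteins, 0, 1, 0 and 2 were 2-fold or more higher and 0, 2, 0 and 1 lower. Apoa5, a regulator of plasma triglycerides, was highest at 24 h, at 836, 1382, 1584, 1107 and 1977 CPM. The major urinary proteins, pheromone carriers under growth hormone control, were low at 4, 8 and 24 h and not at 16 h: of 11 genes, 7, 6, 0 and 10 were lower and 0, 0, 1 and 0 higher, with medians of −1.21, −1.32, 0.28 and −1.93. Mup17 stood at 3007, 1299, 1143, 2900.1 and 242 CPM in members and 206, 127, 152, 211 and 94.5 in low-Cyp2e1 cells, so the gap between the classes was smallest at 24 h. Mup3, the most abundant, was steadier, at 12029, 10032, 9997, 11290.2 and 8421 CPM. Genes of this cluster are near-identical, and how UMIs fall between them is uncertain.

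Cytosolic ribosomal protein genes were for the most part higher at 4 and 8 h. Of 36 genes, 30, 32, 0 and 16 were 2-fold or more higher and 0 lower, with medians of 1.48, 1.47, 0.15 and 0.97. Rpl11 stood at 346, 1463, 1606, 431 and 965 CPM and Rpl41, the most abundant, at 2506, 3588, 6471, 1741 and 1956. The fed and 16 h members were low and the others high for Rpl11. The mt share of the cells moved with this group: in the 4 h members, 522 cells with up to 15% mt UMIs had a summed ribosomal level of 60447 CPM at a median of 1708.5 UMIs, and 1018 cells above 15% had 44527 CPM at 11047.5 UMIs. In the fed members the same split gave 18998 and 12301 CPM. The 4 h level was above the fed one on both sides of the split. Mt1 split alike at 4 h, 8409 against 3327 CPM, and Hspa5 the other way, 438 against 862. With barcodes under 2% mt UMIs taken in, the list median at 16 h was −0.49 in place of 0.15, and over all alternatives that at 24 h ran from 0.31 to 1.38. The part of cell quality in these values was not tested beyond this.

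Detoxification genes differed gene by gene. Of 18 pericentral cytochrome P450 genes, 2, 2, 0 and 3 were 2-fold or more higher and 0, 2, 1 and 4 lower, with medians of −0.23, −0.11, −0.16 and −0.46 in members and −0.22, −0.51, −0.037 and 0.24 in low-Cyp2e1 cells. Cyp2b10, the classic target of Nr1i3, stood at 23.7, 122, 203, 17.04 and 11.6 CPM, high at 4 and 8 h (log2 3.10, 95% interval 2.83 to 3.37). Cyp2a5, a coumarin and nicotine hydroxylase, stood at 868, 731, 366, 349 and 648 CPM, low at 8 and 16 h. Cyp2c70, which makes muricholic acids, stood at 404, 303, 234, 506 and 96.1 CPM, low at 24 h. Cyp3a11, the main steroid and drug hydroxylase and the most abundant of the list, stayed high throughout, at 7660.2, 9022, 11479.7, 6820.5 and 7753 CPM. Similar sequences within the Cyp2c family can share UMIs. Of 17 conjugation enzymes, 1, 1, 0 and 0 were higher and 1, 5, 1 and 3 lower. Ugdh, which makes UDP-glucuronate, was low at 4, 8 and 24 h (498, 206, 187, 578 and 166 CPM), and Gstp1, a glutathione transferase, high at 4 and 8 h and low at 16 h (47.9, 124, 137, 15.7 and 50.9 CPM). Low-Cyp2e1 cells held more Gstp1 at 8 h (324 CPM), and with 10% of the members' UMIs subtracted in the profile of barcodes under 1% mt UMIs, taken as a stand-in for free RNA, the members' log2 ratio at 8 h was −2.82 in place of 1.52.

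Bile acid genes differed gene by gene. Cyp7a1 (chr4:6265612-6275633), the rate-limiting enzyme of the classic route, stood at 350, 432, 365, 89.3 and 300.4 CPM in members and 16.9, 22.3, 9.38, 2.63 and 15.3 in low-Cyp2e1 cells. It was low at 16 h alone (log2 −1.97, 95% interval −2.10 to −1.85), and a central gene in every library. Cyp8b1, the 12α-hydroxylase, stood at 261, 384, 907, 297 and 405 CPM, highest at 8 h, Cyp27a1, the sterol 27-hydroxylase, at 237, 324, 504, 221 and 303, also highest at 8 h, and Hsd3b7 at 266, 217, 298, 721 and 173, highest at 16 h. Of 17 genes, 0, 2, 1 and 0 were 2-fold or more higher and 0, 2, 1 and 2 lower.

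The remaining lists were short or held few genes past 2-fold. Of 13 nuclear receptors, 0, 1, 0 and 1 were higher (Hnf4a at 8 h, log2 1.21, and Ppara at 24 h) and 1 lower, Nr1d2 at 8 h (log2 −1.82). Of 5 clock genes, 0 were higher and 1, 2, 0 and 1 lower. Bhlhe40, a clock repressor that also answers feeding, stood at 313, 109.9, 50.8, 169 and 62.5 CPM and differed between 0 and 24 h, which share the clock hour. Nr1d2, the REV-ERBβ receptor, at 72.7, 47.4, 20.6, 106 and 88.8 CPM, was nearly alike at those hours. Of 5 hypoxia genes 1 was lower at each time, Vegfa at 4, 8 and 24 h (199, 78.3, 44.6, 144 and 88.2 CPM) and Higd1a at 16 h. Of 4 genes known to answer cell dissociation, 1, 2, 1 and 2 were lower and 0 higher, with Hsph1, a cytosolic chaperone, at 155, 52.5, 26.1, 34.4 and 22.1 CPM.

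A few genes set members apart from low-Cyp2e1 cells in every library. Of 2153 genes with 50 CPM or more in either class in every library, 28 were 2-fold or more higher in members in all 5 libraries (1.30%) and 6 lower (0.279%). This contrast is close to the one that chose the cells, so nothing is read from the counts. The first set was led by Cyp2a5, Cyp2e1, Cyp2c29, Aldh3a2, Cyp7a1, Cyp2c37, Oat, Lect2, Gulo and Cyp1a2. The second was Ctsc, Hsd17b6, Sds, Etnppl, Apoa4 and Mup20. Central landmarks had a median log2 ratio of members over low-Cyp2e1 cells of 3.95, 3.64, 3.85, 3.74 and 3.25 in the 5 libraries, and portal landmarks of −0.98, −0.71, −0.54, −0.87 and −0.32. Both were nearest to 0 at 24 h. The ER folding list had medians of −0.06, 0.05, 0.01, −0.11 and 0.01, all near 0.

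Most genes with 50 CPM or more in both classes had like ratios to fed in them. At no time was a gene with 50 CPM or more in both classes 2-fold or more higher in one class and lower in the other. Log2 ratios to fed differed by 1 or more between classes for 2 of 2814 genes at 4 h, 13 of 2887 at 8 h, 6 of 2840 at 16 h and 14 of 2850 at 24 h. No gene's difference could be tested with 1 library per time. At 24 h the gene whose log2 ratio to fed exceeded that of low-Cyp2e1 cells by most was the central gene Cyp2a5 (log2 −0.42 in members, −2.57 in low-Cyp2e1 cells), and others that differed most in either direction were Cyp2f2 (log2 0.95 in members, −0.29 in low-Cyp2e1 cells), Hal (2.43 and 1.24), Mup17 (−3.64 and −1.13) and Cyp2c37 (−0.19 and 2.27). Elovl3 stood out early: at 4 h its log2 ratio was 4.18 in members and 5.69 in low-Cyp2e1 cells, where the fed level was only 3.603 CPM. Cd36, a fatty acid uptake receptor and a strongly central gene (145, 59.5, 15.4, 126 and 60.9 CPM in members, 11.7, 3.9, 1.496, 8.94 and 11.8 in low-Cyp2e1 cells), was lowest in members at 8 h.

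**Figure D5:**
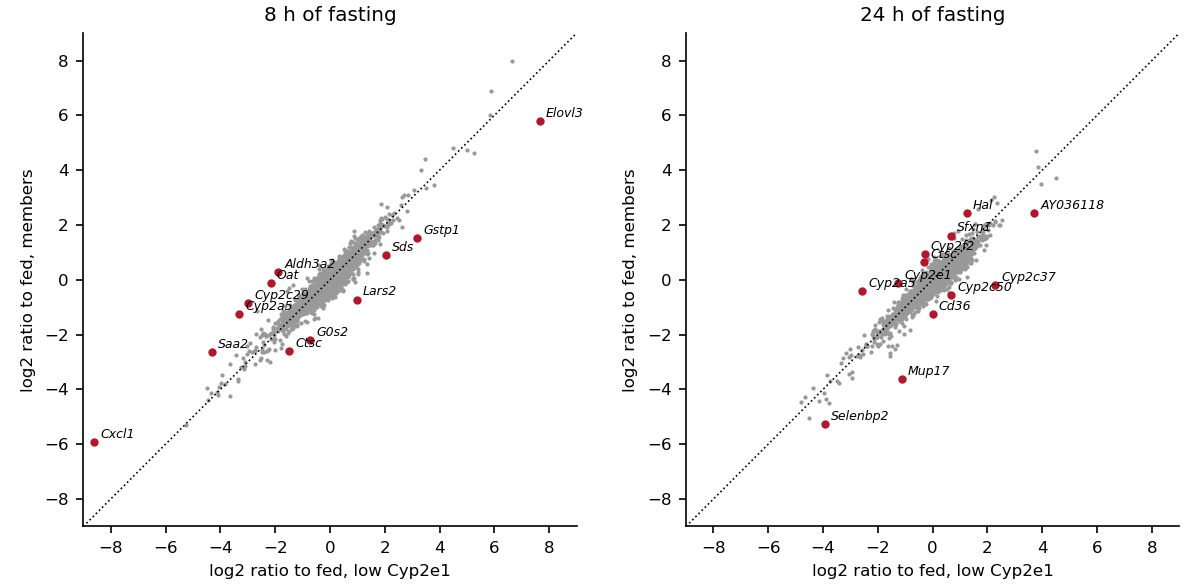
Log2 ratio to the fed library in members (vertical) against that in low-Cyp2e1 cells (horizontal) for single genes at 8 h and at 24 h, with the 12 genes that differ most between the classes labelled in each panel. Points lie near the diagonal, and Cyp2f2 and Hal lie above it at 24 h (1.24 and 1.19 between the classes). Both axes of a panel use the fed library and the library of that panel's time.

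Members also varied among themselves. Each library's members were ranked by Cyp2e1 per 10000 UMIs and divided into 3 equal parts. Between the highest and the lowest of these parts, central landmarks had median log2 ratios of 1.30, 1.55, 0.997, 1.33 and 0.84 and portal landmarks of −0.50, −0.58, −0.51, −0.74 and −0.48. The ranking uses the gene behind the rule, to which these genes are linked, so the ratios are a description. Cyp2a5 had a steep slope, at 3.35, 3.21, 4.06, 3.57 and 5.03, and Oat was at 2.41, 2.25, 3.21, 2.68 and 1.69. Mup17 ran with them, at 2.80, 2.92, 3.57, 2.94 and 2.22. Cyp2f2 ran opposite, at −3.29, −3.77, −5.46, −3.67 and −1.98, flattest at 24 h. Pck1 had 0.05, −0.22, 0.00, −0.50 and −0.51, and Hspa5 0.04, 0.41, 0.08, −0.16 and 0.13. Elovl3 was also higher in the highest part, at 1.44, 0.73, 0.26, 1.02 and 1.57. At 8 h, where it was most abundant, the highest and lowest parts stood at 1216 and 1016 CPM. Its steep ratios rest on low levels, 30.3 and 11.1 CPM in the fed library and 53.8 and 18.1 at 24 h. Depth moved with the ranking in some libraries: the median UMI count from the lowest to the highest part was 2456, 4243 and 4364.5 in the fed library, 1920, 4235 and 11128 at 4 h, and 6139.5, 7868.5 and 8642 at 24 h, but 12686.5, 11518.5 and 12208 at 8 h and 3627.5, 4017.5 and 3999 at 16 h. The median mt share also went with the ranking at 4 h, at 11.8, 18.0 and 20.6%, and in the fed library, at 9.76, 11.8 and 12.7%. It rose less at 16 h, at 13.2, 13.5 and 14.0%. At 8 h it was 10.0, 9.97 and 9.41%, and at 24 h 18.5, 17.8 and 20.0%. The part of depth and mt share in these ratios was not tested.

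After thinning to 1000 UMIs outside the mt genes, the Fano factor, the variance over the mean of a gene's UMIs per cell, had a median of 1.05 to 1.11 over genes with 200 CPM or more, close to the 1 of pure counting. A few genes were far above it. In the fed members the 5 highest were Malat1, a nuclear RNA, at 21.6, Gm42418, which lies in a ribosomal RNA locus, at 15.8, Alb at 11.5, Fabp1 at 10.3 and Apoa2 at 9.16. Mup17, at rank 8, had 5.19. Saa2 had 4.45 in the 16 h members: 10.01, 52.7, 1.202, 75.4 and 0.712% of thinned members held a UMI of it, against 4.01, 40, 0, 62.9 and 0% of endothelial barcodes, and 22.1, 87.01, 2.98, 84.6 and 2.49% of members without thinning. The endothelial share at 16 h is near that of members, so the latter is not read as a share of expressing cells.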

How the data were processed

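Hepatocytes isolated from 5 groups of mice gave 1 library each (10x Genomics 3' v3), with 10000 deposited barcodes and 40002260 to 68330252 UMIs per library. The values are UMI counts per gene and barcode, not normalized, deposited by the authors; Cell Ranger 6.0.1 and the build mm10 are named in the submitters' processing notes. Libraries were read from the deposited barcode table, leaving 0 per-sample columns out. Members, gene lists and tests were chosen with earlier results of these data known. Counts of members were summed per library and scaled to CPM of non-mt UMIs. Levels carry exact Poisson intervals, ratios conditional binomial and shares Clopper-Pearson intervals, all at 95% and for counting error only, since no replicates exist. A gene was called at 2-fold or more with 50 CPM or more in either library; lists used genes whose mean over the 5 libraries was at least 50 CPM. Named genes were the markers of the rule and Cyp2f2, the 2 most abundant and the extreme genes of each list, the 6 highest and 6 lowest ratios at each time, the 6 highest and 6 lowest differences from low-Cyp2e1 cells, the 3 genes most particular to a library, the 5 highest Fano factors, and the 10 highest and 10 lowest ratios of members over low-Cyp2e1 cells; others are named as chosen after their values were seen. Some genes that the rule names are not reported here. Doublets were not removed, and no doublet caller was run. Gene positions are from GENCODE M21 (GRCm38), which matched 32158 of 32285 genes, and promoters from RefSeq (GRCm38.p6). Python 3.11.15, numpy 2.4.6, scipy 1.17.1 and pandas 2.3.3 were used, and edgeR 4.0.16 in R 4.3.3 for TMM scaling factors. The scripts were tested on simulated data.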

Additional observations from a re-analysis of the deposited data

Results flagged for a closer look

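Barcodes under 2% mt UMIs, which the rule leaves out, also held many Cyp2e1-rich droplets. Of them, 988, 3765, 265, 186 and 13 in the 0, 4, 8, 16 and 24 h libraries met the rest of the rule. The report's members leave them out, and they enter its values only where barcodes under 2% mt UMIs are said to be taken in. At 4 h they outnumbered the 1540 members. At 4 h they had a median of 1864 UMIs, a summed ribosomal protein level of 73265 CPM and an Mt1 level of 12329 CPM. Members with up to 15% mt UMIs had 1708.5 UMIs, 60447 CPM and 8409 CPM, and those above 15% had 11047.5 UMIs, 44527 CPM and 3327 CPM. Over all barcodes under 1% mt UMIs, summed Cyp2e1 was 21.8, 27.9, 20.5, 39.3 and 3.29 per 10000 non-mt UMIs. What these droplets hold was not tested.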

How the results depend on the processing

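The number of members moved most with the limits on cells. A minimum of 3000 UMIs gave 818, 886 and 1526 members at 0, 4 and 16 h. A Cyp2e1 threshold of 40 gave 946 at 4 h and 175 at 24 h, and a maximum of 15% mt UMIs 522, 1580 and 60 at 4, 16 and 24 h. With no minimum of mt UMIs, an alternative chosen after seeing the data, there were 2357, 5305 and 769 at 0, 4 and 8 h, and 261 genes were 2-fold or more lower at 16 h. Up to 15% mt UMIs, 382 genes were higher and 773 lower at 4 h, and 316 higher and 623 lower at 24 h; the median of all genes then shifted by −0.32 and −0.13. With a minimum of 10 CPM, 271, 533, 275 and 326 genes were higher and 445, 837, 292 and 731 lower at 4, 8, 16 and 24 h, and with 200 CPM 103, 154, 39 and 81 higher and 59, 134, 52 and 116 lower. TMM factors shifted the median of all genes by 0.10 at 4 h and at 24 h. Reversed against the report were AY036118 at 16 h with 3000 UMIs (0.12), Gstp1 at 8 h with 10% of UMIs subtracted in the profile of barcodes under 1% mt UMIs (−2.82), Ppp1r3c at 4 h up to 15% mt UMIs (−0.019), and the metallothionein list median at 10 CPM (−0.24, −0.11, −0.012 and −0.37), where the added genes are little expressed. The cause was not tested otherwise. Of 300 ratios of named genes past 2-fold (299 with thinning), 275 to 299 stayed past it under each alternative other than the 2 minimums of CPM, which leave single ratios as they are. No paired analysis was possible because each time had 1 library, with replicate numbers given in accession order only, and leaving out a replicate was not possible for the same reason. Low counts limit the 24 h members, 281 cells.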
